A study of Arabidopsis thaliana with 9 samples.

Results

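LHCB4.1, LHCB4.2 and LHCB4.3 are the 3 Arabidopsis thaliana genes for CP29, a minor antenna protein of photosystem II. The members were all probe sets that name one of these genes, alone or beside others. There were 3, one per gene and each naming no other gene, among 22746 probe sets tested and 13350 genes named by a probe set of their own. Transcript levels came from whole seedlings grown in the dark for 10 days, on 9 one-colour Affymetrix arrays, 3 for each line. The lines were sps1, L17, which the labels call a phyA' line, and wild type Col-0. Col-0 is also the background given for sps1 and L17. The labels state no allele, transgene or clone number for either line and no treatment beyond growth in darkness. Nothing in them tells if the 3 arrays of a line stem from different plantings, so the p-values cover the spread among these arrays alone, and that spread may be technical.

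CP29 binds chlorophyll and carotenoids and sits between the photosystem II core and the trimeric outer antenna. It passes excitation energy inward and is a target of the thylakoid kinases. LHCB4.1 and LHCB4.2 encode the common forms, and LHCB4.3, also called LHCB8, encodes a form with a shorter C-terminal end that is known from leaves in strong light. Genes of the antenna are transcribed strongly in light through phytochromes and weakly in seedlings kept in the dark, where plastids stay etioplasts. According to the RefSeq table for TAIR10.1, LHCB4.1 is locus AT5G01530 on chromosome 5, LHCB4.2 is AT3G08940 on chromosome 3, and LHCB4.3 is AT2G40100 on chromosome 2. The deposited values carry no coordinates, and probe sequences were not used here. Whether the probes of one paralog also take up signal from another was not tested. Signals of different probe sets are on no common scale, so the levels of the 3 genes are not ranked against each other below.

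The arrays had median signals between 137.6 and 155. The third wild type array correlated with the other wild type arrays at 0.954 across probe sets, while those arrays correlated at 0.985 with each other. RNA integrity was read from control probe sets at both transcript ends. Their 3' to 5' ratio for ubiquitin averaged 2.49 ± 0.066 in sps1, 2.32 ± 0.103 in L17 and 1.85 ± 0.0915 in wild type (SD, n = 3). For GAPDH the ratio averaged 1.70, 1.58 and 1.42 in the same order of lines. For the Athal-Actin control it was far higher in every line, at 22.4 ± 4.0, 20.6 ± 1.48 and 19.3 ± 3.41 (SD, n = 3). The array holds another pair of actin end controls, which was not read here. The ubiquitin ratio separated sps1 and L17 from wild type, as LHCB4.2 and LHCB4.3 did, and its part in their differences was not tested. Few organ markers could be checked. The annotation used here left 8730 probe sets unnamed, so genes that are not named may still be on the array. Of 7 root markers 3 were named on the array, of 5 shoot markers 1, of 3 markers of etiolated seedlings 1, and of 5 markers of seed remnants 0. BGLU23, an abundant beta-glucosidase of roots and hypocotyls, had signals of 14228 to 18976 in sps1, 14705 to 17222 in L17 and 13219 to 14829 in wild type. The root hair expansins EXPA7 and EXPA18 read between 2.28 and 79.98 on all 9 arrays. PHV, a leaf polarity factor, read 186.1 to 279.6. None of these 4 markers passed the test in any comparison. PORB, the protochlorophyllide reductase present in etiolated and green tissue, rose in both lines, with log2 fold changes of 1.08 in sps1 and 1.19 in L17 against wild type (limma adjusted p = 0.0111 and 0.00932).

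**Figure D1:**
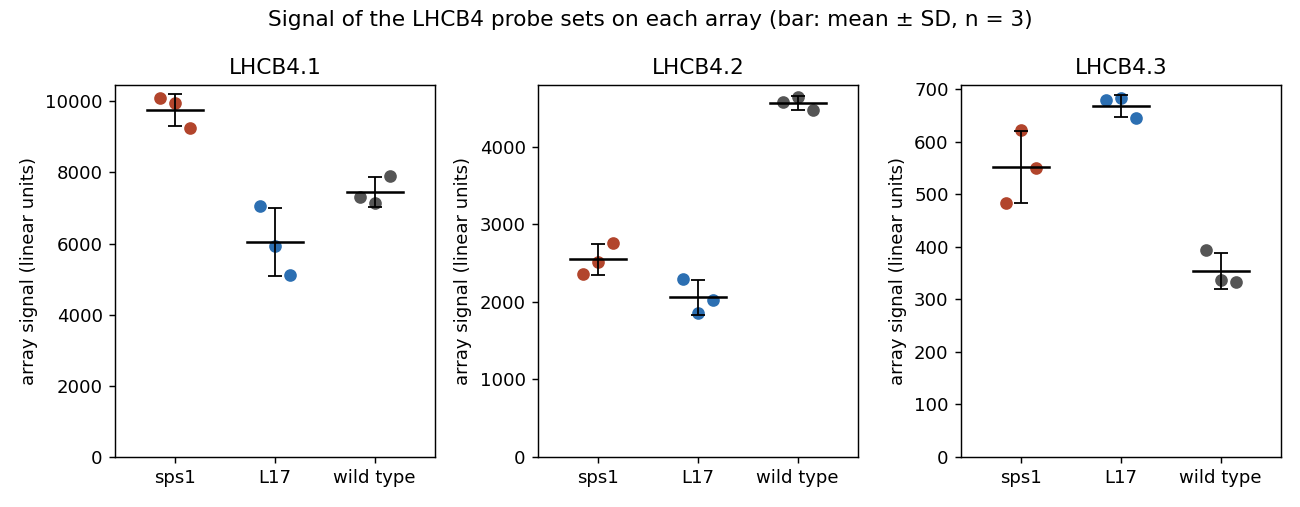
Linear array signal of the LHCB4.1, LHCB4.2 and LHCB4.3 probe sets (one panel each, y axes starting at 0) on each array of sps1, L17 and wild type. Points are arrays, and bars give the mean ± SD of 3 arrays. The mean of LHCB4.1 is highest in sps1, that of LHCB4.2 in wild type and that of LHCB4.3 in L17, and no pair of lines overlaps in a panel, although 4 of the 9 differences did not pass the test.

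In L17 LHCB4.2 fell 2.22-fold while LHCB4.3 rose 1.85-fold. In sps1 the same 2 genes changed in the same directions, by -0.84 and 0.61 on the log2 scale. LHCB4.1 differed past the threshold only between sps1 and L17. The order of the mean signals was sps1, wild type, L17 for LHCB4.1, wild type, sps1, L17 for LHCB4.2 and L17, sps1, wild type for LHCB4.3, from high to low. Of the neighbours in these orders, wild type and sps1 for LHCB4.2 and sps1 and wild type for LHCB4.3 passed the test, and the other 4 steps did not. Changes are given as log2 of (signal + 16), which slightly understates those of LHCB4.3, the gene with the lowest signals, and calls are at a limma adjusted p under 0.05 over all 22746 probe sets. In bulk seedlings fewer cells with a transcript and less transcript per cell cannot be told apart.

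LHCB4.2 gave the largest change of the 3 genes. Its signals were 2297, 1849 and 2029 on the L17 arrays, against 4584, 4648 and 4470 on the wild type arrays. All 3 L17 arrays lay far below all wild type arrays, and the wild type arrays varied little around 4568 ± 90.1 (SD, n = 3). The log2 fold change was -1.15 ± 0.13 (SE, limma adjusted p = 0.00104), with a 95% interval from -1.45 to -0.85. A fall at least this large was seen for 3.64% of all probe sets. On the sps1 arrays LHCB4.2 read 2363, 2519 and 2762, again below every wild type array. The log2 fold change of sps1 against wild type was -0.84 ± 0.13 (SE, limma adjusted p = 0.0036), with a 95% interval from -1.14 to -0.54. Both calls stayed under each of the 18 other settings tried, with values between -1.23 and -1.08 in L17 and between -0.90 and -0.72 in sps1. The third wild type array, at 4470, was close to the others for this gene. The mean signal of LHCB4.2 over 3 arrays was 2548 ± 201 (SD) in sps1, and in L17 it was 2058 ± 225. Their arrays did not overlap, but the log2 difference of 0.31 did not pass (limma adjusted p = 0.227), with a 95% interval from 0.01 to 0.61.

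LHCB4.3, the form with the shorter C-terminal end, was higher in both lines. It read 678.7, 682.6 and 644.3 on the L17 arrays, against 393.0, 335.7 and 333.3 on the wild type arrays. The highest wild type array thus stayed well under the lowest L17 array. The log2 fold change was 0.89 ± 0.14 (SE, limma adjusted p = 0.0046), with a 95% interval from 0.58 to 1.2. A rise at least this large was seen for 3.43% of all probe sets, and the call stayed under each of the 18 other settings. On the sps1 arrays LHCB4.3 read 483.4, 621.4 and 549.1, between the L17 and the wild type arrays. The log2 fold change of sps1 against wild type was 0.61 ± 0.14 (SE, limma adjusted p = 0.0188), with a 95% interval from 0.30 to 0.93. Among the fits that left out an array or a line, the call was lost without the second wild type array (adjusted p = 0.0605), without sps1 replicate 2 (0.0706) or 3 (0.0625), and with sps1 and wild type alone in the fit (0.057). Without the third wild type array the value was 0.57 (adjusted p = 0.0361), and the call stayed. Between sps1 and L17 LHCB4.3 gave a log2 difference of -0.28 (limma adjusted p = 0.306), with a 95% interval from -0.59 to 0.03.

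LHCB4.1 did not pass the test in either line against wild type. It read 10088, 9942 and 9253 on the sps1 arrays, 7043, 5938 and 5124 on the L17 arrays, and 7297, 7132 and 7913 on the wild type arrays. The sps1 arrays lay above and the L17 arrays below all wild type arrays, with the highest L17 array just under the lowest wild type array. The log2 fold change of sps1 against wild type was 0.39 ± 0.14 (SE, limma adjusted p = 0.113), with a 95% interval from 0.06 to 0.72. That of L17 against wild type was -0.31 ± 0.14 (SE, limma adjusted p = 0.217), with a 95% interval from -0.64 to 0.02. Set against each other, sps1 averaged 9761 ± 446 and L17 6035 ± 963 (SD, n = 3). The log2 difference was 0.70 ± 0.14 (SE, limma adjusted p = 0.023), with a 95% interval from 0.37 to 1.03. The L17 arrays spread widely, with an SD of 16% of their mean against 4.57% in sps1 and 5.53% in wild type. Leaving out L17 replicate 2 or 3 ended the call (adjusted p = 0.0847 or 0.068), and so did leaving out sps1 replicate 1, 2 or 3 (0.077, 0.0796 or 0.0629). Between sps1 and wild type the value passed with a filter on dim probe sets (adjusted p = 0.0496) and with trended and robust moderation (0.0397).

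Counted together, 2 of 3 members passed in L17 against wild type, 1 higher and 1 lower, where 11.4% of all probe sets passed, 5.32% higher and 6.12% lower. In sps1 against wild type 2 of 3 passed, likewise 1 higher and 1 lower, where 14.6% of all probe sets passed, 6.68% higher and 7.94% lower. Between sps1 and L17 1 of 3 passed, higher in sps1, where 6.86% of all probe sets passed, 3.14% higher and 3.72% lower. The arrays of the 2 lines did not overlap for any of the 3 members in any comparison, and this held for 31.2%, 33.4% and 30.7% of all probe sets in the same order of comparisons. The values of L17 and of sps1 against wild type share the wild type arrays. Without the third wild type array the log2 fold changes of LHCB4.1, LHCB4.2 and LHCB4.3 remained on the same side of the threshold in all 3 comparisons.

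**Figure D2:**
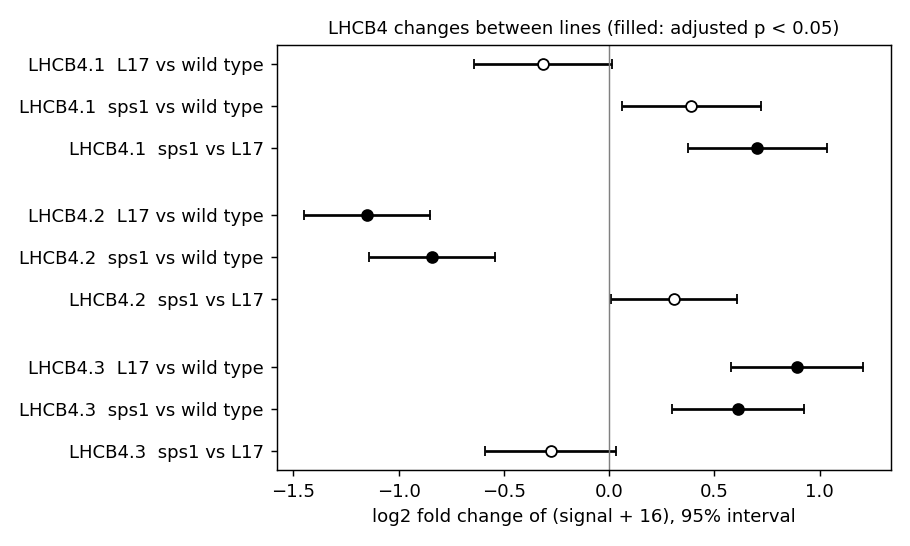
Log2 fold change of (signal + 16) for each LHCB4 gene in the 3 comparisons, with its 95% interval from limma; filled points have an adjusted p under 0.05. LHCB4.2 lies below 0 and LHCB4.3 above 0 in both lines against wild type, and LHCB4.1 is past the threshold only in sps1 against L17.

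To ask whether the paralogs changed unequally, the log2 signal of one was subtracted from that of another on each array. This cancels any factor common to both probe sets on an array. The value has no meaning as a ratio of transcripts, and only its change between lines is described. LHCB4.3 minus LHCB4.2 was -2.25, -1.99 and -2.30 in sps1, -1.74, -1.42 and -1.63 in L17, and -3.49, -3.73 and -3.68 in wild type. The 3 lines formed 3 separate groups. The balance of the 2 genes had moved toward LHCB4.3 by 1.45 on the log2 scale in sps1 and by 2.04 in L17, which is 2.74-fold and 4.11-fold. An exact permutation test over the 1680 ways to place 9 arrays in 3 lines gave p = 0.00357 (F = 143), the smallest p it can give, and an adjusted p of 0.00536 over the 3 pairs of genes. The test uses the same signals as the fold changes above, so it is no separate support for them. The genes were chosen with earlier results of these data known.

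LHCB4.1 minus LHCB4.2 was 2.09, 1.97 and 1.74 in sps1, 1.61, 1.67 and 1.33 in L17, and 0.67, 0.62 and 0.82 in wild type. Here sps1 was the line farthest from wild type, by 1.23 on the log2 scale, against 0.84 for L17. The test over the 3 lines, which does not tell which lines differ, gave an exact permutation p of 0.00357 (adjusted p = 0.00536 over 3 pairs). Between sps1 and L17 alone the difference was 0.39 (exact permutation p = 0.1). LHCB4.3 minus LHCB4.1 was -4.34, -3.97 and -4.04 in sps1, -3.34, -3.09 and -2.96 in L17, and -4.16, -4.35 and -4.50 in wild type. For this pair L17 stood apart, by 1.2 from wild type, while the sps1 and wild type arrays overlapped and their means differed by 0.22 (exact permutation p = 0.00714 over the 3 lines, adjusted p = 0.00714). In single comparisons of 3 against 3 arrays an exact two-sided permutation test cannot go below 0.1. Of the 9 such exact permutation tests 8 gave p = 0.1 (adjusted p = 0.113 over 9), and LHCB4.3 minus LHCB4.1 in sps1 against wild type gave p = 0.2.

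**Figure D3:**
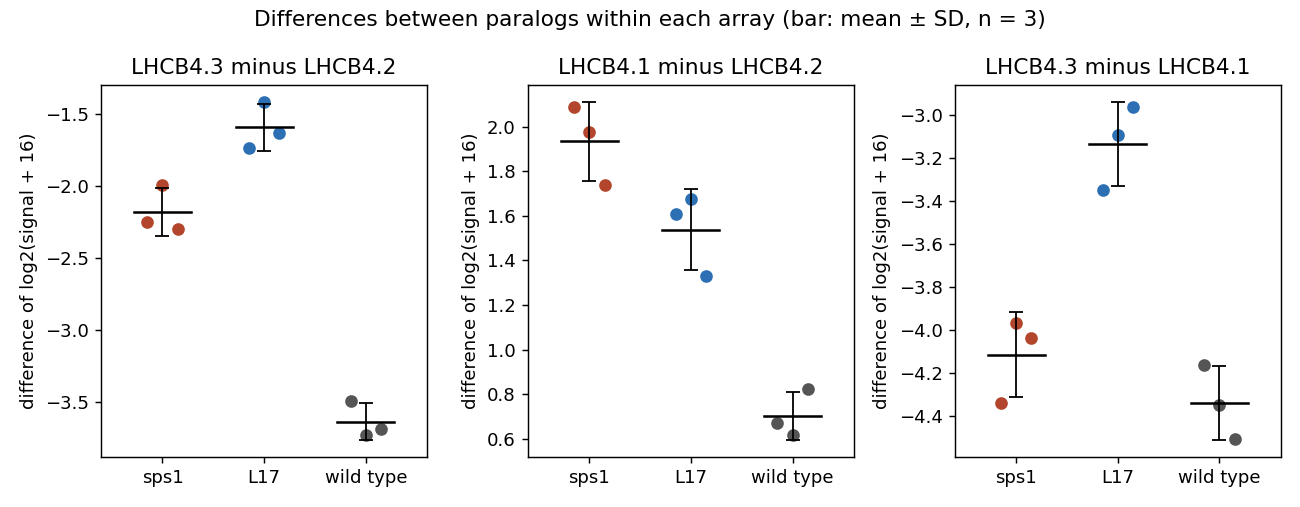
Differences of log2(signal + 16) between 2 LHCB4 probe sets on the same array, one panel per pair, for each array of sps1, L17 and wild type, with the mean ± SD of 3 arrays. The y axes do not start at 0. LHCB4.3 minus LHCB4.2 separates all 3 lines, with L17 highest and wild type lowest, whereas LHCB4.3 minus LHCB4.1 separates L17 from both others.

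Of a list of 30 light harvesting proteins and their relatives, 5 genes could be named with the annotation used here, the 3 LHCB4 genes and both LIL3 genes. The others may be among the unnamed probe sets, so the counts and medians below do not describe the family. LIL3 proteins are membrane relatives of the antenna that hold geranylgeranyl reductase in chlorophyll and tocopherol synthesis. LIL3:1 read 1002, 1215 and 1384 in sps1, against 352.4, 239.4 and 415.9 in wild type. Its rise was 1.81 on the log2 scale (limma adjusted p = 0.00107). In L17 it read 446.5, 573.0 and 443.1, above each wild type array, without passing (limma adjusted p = 0.164). Between sps1 and L17 LIL3:1 differed by 1.27 (limma adjusted p = 0.0115), and without sps1 replicate 3 that adjusted p was 0.0501. LIL3:2 averaged 4680 ± 888 in sps1, 4005 ± 435 in L17 and 1757 ± 180 in wild type (SD, n = 3). It rose in both lines, with log2 fold changes of 1.39 in sps1 (limma adjusted p = 0.0011) and 1.18 in L17 (limma adjusted p = 0.00339). In sps1 3 of these 5 genes rose, 1 fell and 1 missed the threshold, and the median log2 fold change was 0.61, where 14.6% of all probe sets passed. In L17 2 rose, 1 fell and 2 missed it, and the median was 0.54, where 11.4% of all probe sets passed. The median over all probe sets was -0.01 in sps1 and 0.01 in L17. LHCB4.2 was the 1 that fell in both lines.

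CP29 works beside the photosystem II core, whose subunits come from nuclear and plastid genes. Of 12 nuclear photosystem II genes 3 were named. PSB27, an assembly factor, averaged 6088 ± 318 in sps1, 3164 ± 425 in L17 and 2927 ± 542 in wild type (SD, n = 3), and rose in sps1 by 1.07 on the log2 scale (limma adjusted p = 0.0036). PSBY, a small subunit, rose in sps1 by 1.14 (limma adjusted p = 0.00663). PSBW, a small subunit that stabilises the complexes of core and antenna, gave 0.64 in sps1 (limma adjusted p = 0.0829). None of the 3 passed in L17, where their log2 fold changes lay between 0.12 and 0.18. Over all probe sets 14.6% passed in sps1 and 11.4% in L17 against wild type, so none of 3 in L17 is near that share. Against L17, PSB27 and PSBY were higher in sps1, by 0.95 and 0.96, as LHCB4.1 was by 0.70. In that comparison 6.86% of all probe sets passed. Leaving out L17 replicate 2 or sps1 replicate 3 ended the call of PSB27 (up to adjusted p = 0.056). Leaving out L17 replicate 1 or 2 or any sps1 array ended that of PSBY (up to 0.0876). Of 12 nuclear photosystem I genes 2 were named, PSAE1 and PSAN. PSAE1 rose in sps1 by 0.73 (limma adjusted p = 0.0411 against wild type), a call lost when any of 6 arrays was left out (up to 0.111). PSAN was higher in sps1 than in L17 (0.79, limma adjusted p = 0.0201), a call lost when any of 4 arrays was left out (up to 0.0804).

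All 15 plastid genes of photosystem II in the list were measured. In sps1 2 rose, 0 fell and 13 missed the threshold, and the median log2 fold change was 0.58. In L17 3 rose, 1 fell and 11 missed it, and the median was 0.67. With 14.6% of all probe sets passing in sps1 and 11.4% in L17, the count in sps1 was near that background. The gene psbA, for the D1 protein of the reaction centre, rose in both lines, by 2.73 in sps1 and 2.79 in L17 (limma adjusted p = 0.00114 and 0.0015). In L17 psbE, for a subunit of cytochrome b559, was the 1 that fell, at 1592 ± 196 against 2680 ± 105 in wild type (SD, n = 3, limma adjusted p = 0.00881). With each of the 9 arrays left out in turn, the rise of psbC in L17 passed in 2 of 9 fits, that of psbN in L17 in 5 and that of psbN in sps1 in 2. Without the third wild type array none of these 3 passed, which left 1 rise and 1 fall in L17 and 1 rise and 0 falls in sps1. The count in L17 was then near the background too. Between sps1 and L17 6.86% of all probe sets passed. Of the 15 genes psbE alone did, a count near that share, and it was higher in sps1 by 0.61 (limma adjusted p = 0.0291). That call was lost without L17 replicate 1 or 2 or any sps1 replicate (up to 0.117).

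**Figure D4:**
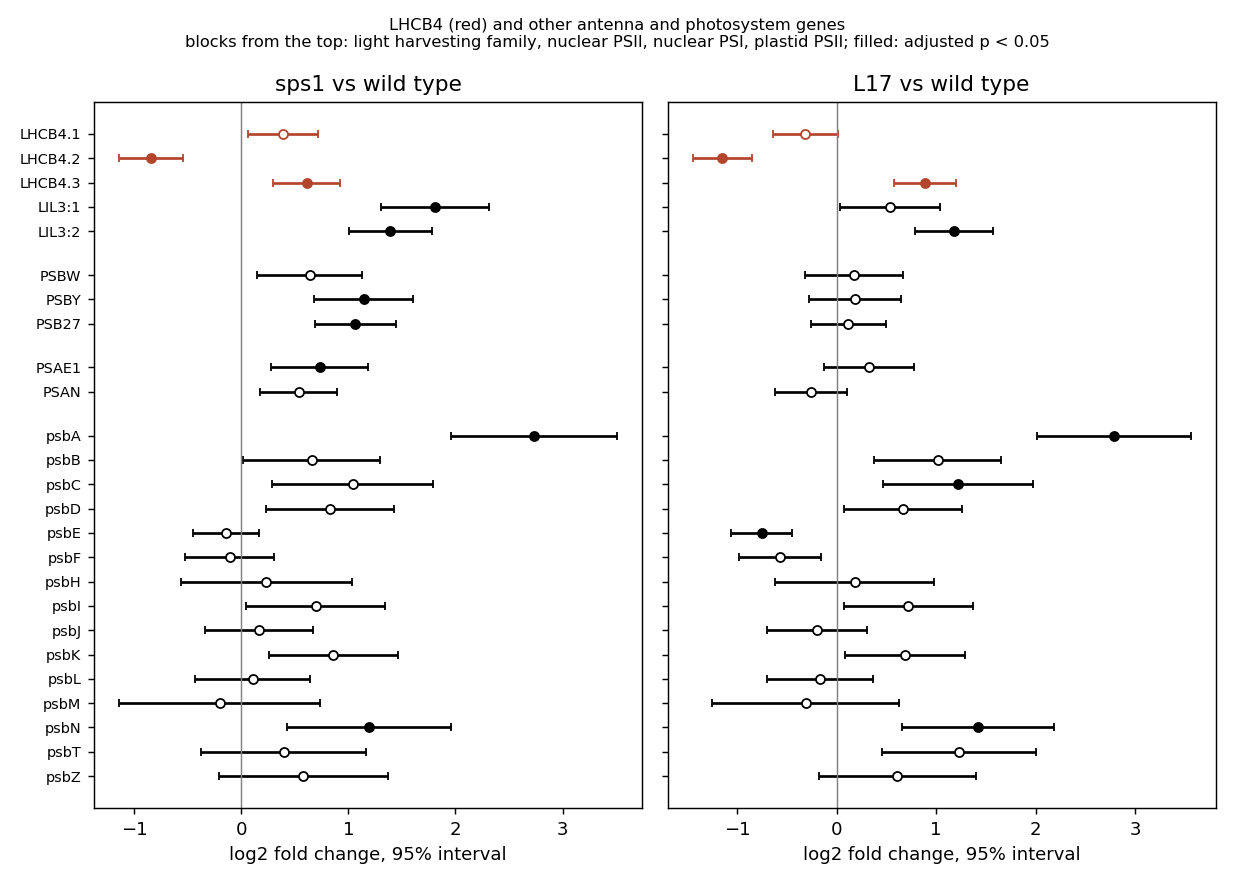
Log2 fold changes with 95% intervals against wild type in sps1 (left) and L17 (right) for the named genes of the light harvesting family, nuclear photosystem II, nuclear photosystem I and plastid photosystem II, in blocks from the top. LHCB4 genes are red, and filled points have an adjusted p under 0.05. LHCB4.2 is the one filled point below 0 in sps1, and LHCB4.2 and psbE are the filled points below 0 in L17.

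Of 18 regulators of greening and of phytochrome signalling 2 were named. FHL, which helps carry phytochrome A into the nucleus, averaged 167 ± 51.8 in sps1, 149 ± 29.2 in L17 and 414 ± 36.8 in wild type (SD, n = 3). Like LHCB4.2 it was lower in both lines, with log2 fold changes of -1.28 and -1.39 (limma adjusted p = 0.00804 and 0.00693). HYH, a bZIP factor of light responses, read 105.8, 101.6 and 101.2 in sps1 against 27.6, 26.2 and 2.07 in L17. In wild type it read 14.2, 48.5 and 59.1. The L17 signals lay near the pseudocount of 16, which therefore largely sets the size of the difference between sps1 and L17, and no fold is given. That difference passed (limma adjusted p = 0.0278), a call lost without L17 replicate 2 or 3 or any sps1 replicate (up to 0.0857). Neither line passed against wild type (limma adjusted p = 0.0924 in sps1 and 0.32 in L17). No gene of a list of 10 for antenna insertion, chlorophyll b synthesis and antenna phosphorylation was named by the annotation used here.

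The genes with the most similar patterns over the 9 arrays were found among 6875 other probe sets naming 1 gene with a mean signal of at least 100. The measure was Pearson's r of log2(signal + 16), which is a description, since arrays of a line share that line. For LHCB4.1 they were AT4G26555, AT3G43430 and AT3G02300, with r between 0.973 and 0.977. AT4G26555 averaged 549 ± 56.6 in sps1, 294 ± 55.3 in L17 and 363 ± 38.1 in wild type (SD, n = 3), the same order of lines. For LHCB4.2 they were AT4G37250, AT5G63180 and AT3G15760, with r between 0.980 and 0.987. AT4G37250 averaged 422 ± 33.8 in sps1, 359 ± 27.4 in L17 and 980 ± 103 in wild type (SD, n = 3). For LHCB4.3 they were AT5G48900, AT2G37120 and AT3G07480, with r from 0.975 to 0.980. AT5G48900 averaged 4043 ± 327 in sps1, 4778 ± 50.9 in L17 and 2723 ± 250 in wild type (SD, n = 3). Without the third wild type array r of these 9 genes lay between 0.971 and 0.987, and each stayed among the 8 most similar.

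Genes near the members on their chromosomes did not share one pattern with them. The nearest 2 named genes on each side were taken for each member, in the gene order of TAIR10.1, and lay 1 to 9 genes away. Directly beside LHCB4.3, AT2G40110 gave log2 fold changes of -0.08 in sps1 and 0.02 in L17 against wild type (limma adjusted p = 0.744 and 0.945). Directly beside LHCB4.2, AT3G08930 gave -0.39 and -0.42 (limma adjusted p = 0.0787 and 0.0725). The next gene on that side, AT3G08920, rose while LHCB4.2 fell, with log2 fold changes of 1.5 in sps1 and 1.06 in L17 (limma adjusted p = 0.000811 and 0.00587). Near LHCB4.1, TAAC, a thylakoid ATP/ADP carrier 3 genes away, fell in sps1 by 1.29 on the log2 scale (limma adjusted p = 0.0261) and gave -0.19 in L17 (limma adjusted p = 0.747). AT5G01610, 8 genes from LHCB4.1, gave -0.87 in sps1 and -0.11 in L17 (limma adjusted p = 0.0164 and 0.76). AT2G40120, 4 genes from LHCB4.3, gave -1.08 and 0.07 (limma adjusted p = 0.00527 and 0.865). The other neighbours did not pass against wild type, where 14.6% of all probe sets passed in sps1 and 11.4% in L17.

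**Figure D5:**
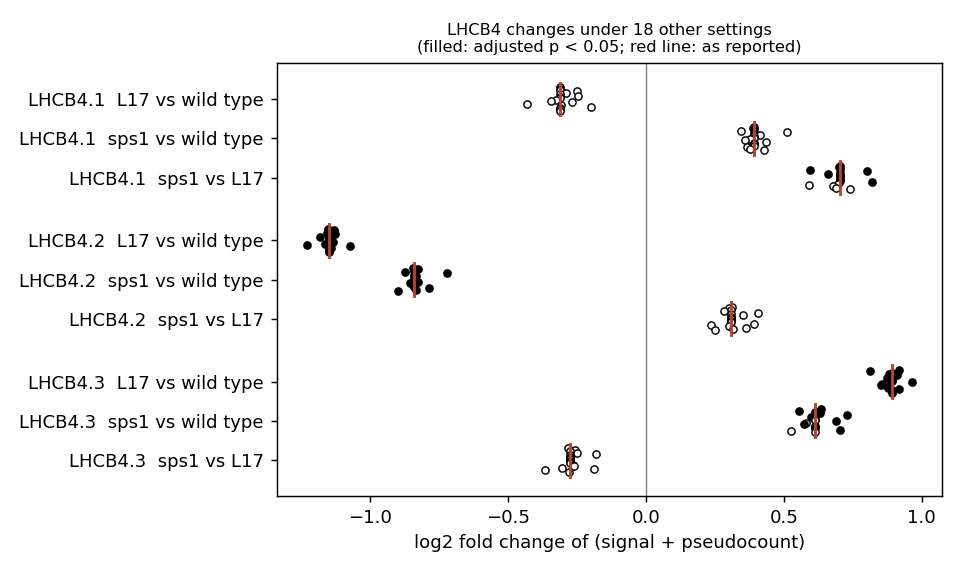
Log2 fold changes of the LHCB4 genes in each comparison under 18 other settings (points, spread vertically for sight) with the reported value as a red line; filled points have an adjusted p under 0.05. No value crosses 0. All points are filled for LHCB4.2 in both lines and for LHCB4.3 in L17, while LHCB4.3 in sps1 and LHCB4.1 in sps1 against L17 have filled and open points.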

How the data were processed

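The deposited table holds 1 array intensity per probe set and sample on a linear scale, with 22810 probe sets and 9 columns. The authors' software was GCOS, per the submitters' processing notes. How signals were summarised and scaled is not given in the sources used here. Trimming 2% of probe sets at each end left a mean of 500.0 on every array, so the deposited intensity values were already scaled, and no further normalization was applied. Groups and replicate numbers were read from the sample titles.

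After removal of 64 control probe sets, log2(signal + 16) of 22746 probe sets was fitted with limma 3.58.1 (R 4.3.3) to all 9 arrays with line as the factor, with empirical Bayes moderation and p-values adjusted by Benjamini-Hochberg. The threshold was an adjusted p of 0.05. Intervals are 95%. The procedure was tested on simulated data. The number of arrays limits the precision. Genes were named through a platform annotation and RefSeq's TAIR10.1 gene table. Of the tested probe sets 13513 named 1 gene, of which 13436 matched that table, 503 named several and 8730 are unnamed here. Differences between paralogs within an array were tested by exact permutation over arrays. The named genes were the members, the 3 genes most like each, and up to 4 passing genes of each list per comparison. Genes that did not pass, markers and chromosomal neighbours were named outside this rule. The members and lists were chosen with earlier results of these data known.

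Alternatives were pseudocounts of 1 and 64, a minimum mean signal of 100, quantile normalization, median centring, trended and robust moderation, array weights, 2 lines per fit, a replicate block, and leaving out each array in turn. The count of list members without the third wild type array was added after seeing the data.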

Additional observations from a re-analysis of the deposited data

How the results depend on the processing

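Each LHCB4 fold change was recomputed under 18 other settings, which gave 162 values. Of these 149 kept their direction and side of the threshold, 11 no longer passed, 2 newly passed and 0 reversed. With the replicate block, LHCB4.3 in sps1 against wild type (0.61, adjusted p = 0.0529) and LHCB4.1 in sps1 against L17 (0.70, 0.0591) did not pass, 1013 probe sets passed for sps1 against L17 in place of 1560, and F of LHCB4.3 minus LHCB4.1 over the 3 lines was 27.6 (exact permutation p = 0.0556). The block changed no other call of a member. Over all probe sets, same-numbered arrays of different lines deviated together by r between -0.08 and 0.06. The labels do not say what the numbers mean, and a link limited to part of the probe sets was not tested. With only the 2 lines in the fit, LHCB4.3 in sps1 against wild type gave 0.61 (0.057), and 1611 probe sets passed for L17 against wild type in place of 2601, while for sps1 against L17 the count was 2074 in place of 1560, and the cause was not tested. LHCB4.1 in sps1 against wild type, at 0.39, passed with the filter on dim probe sets and with trended and robust moderation. Array weights gave 3048 probe sets for sps1 against L17, and the cause was not tested.

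With each array left out in turn, LHCB4.3 in sps1 against wild type ranged from 0.53 to 0.70 and LHCB4.1 in sps1 against L17 from 0.59 to 0.82. The probe sets that passed ranged from 1437 to 2596 for L17 against wild type, 2087 to 3406 for sps1 against wild type, and 719 to 2626 for sps1 against L17, the last count without the third wild type array. Centring each array on its median made 60.1% of calls higher in sps1 against wild type, against 45.7% as deposited, and 59.3% against 45.8% for sps1 against L17. That centring turned no member's direction. Under the alternatives tried for the within-array differences, none changed sign.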
